A study of Mus musculus with 103 samples.

Results

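Quiescent mouse embryonic fibroblasts (MEFs) in which Ctcf had been deleted were compared with untreated cells of the same clones by RNA-seq. The comparison held 4 of the 103 samples of the series, and all 4 were members of the set of 27 RNA-seq libraries deposited in 1 expression table. They were chosen by their labels alone. The fibroblasts came from C57BL/6 embryos at E13.5 and carried both Ctcf alleles in floxed form, written Ctcf(fl/fl). Clone 1 and clone 2 each gave 1 untreated library, from cells rested for 10 d, and 1 treated library, from cells exposed for 4 h to an adenovirus that expresses Cre recombinase (Adeno-Cre) and then rested for 10 d. Wild-type cells of clones 2 and 3, treated in the same ways, gave 2 untreated and 2 Adeno-Cre libraries and control for the virus and for Cre itself. Cells with both Ctcf and Wapl floxed, written Ctcf(fl/fl) Wapl(fl/fl), gave untreated libraries of clones 3 and 4 and 1 Adeno-Cre library, of clone 4. Cre came from the virus and not from a transgene of the cells. No source used here gives the share of cells that took up the virus. What the labels call a clone is the only sign that the libraries of a group are separate cultures, so p-values measure the spread between such libraries. The other libraries of the table came from Rosa26(CreER/+) cells, called Cre-ER, with and without tamoxifen. These cells carried no floxed gene, floxed Smc3 (fl/fl in clone 1, fl/- in clones 2 to 4) or Wapl(fl/-). They entered only through the filter on low values and the estimate of spread, which all 12 groups share. The 4 Ctcf libraries alone leave 2 residual degrees of freedom, and limma then called 26 genes higher and 18 lower.

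CTCF is a zinc finger protein that binds DNA at a long, directional motif. It halts cohesin, the ring complex that extrudes chromatin loops, and so sets many loop ends and domain borders. It also binds close to the start of some genes, among them the clustered protocadherins. In resting fibroblasts the cells no longer divide, so a loss of the protein can be followed without the effects of a failed division.

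The unit of all expression levels here is RPKM, reads per kilobase of gene scaled to library size. The 4 Ctcf libraries held 20.17 to 37.79 M reads in genes, within the range of 7.53 to 37.79 M over the 27 libraries, and an RPKM of 1 stood for 57.7 to 109.0 reads of a gene of median length in them. The Adeno-Cre library of wild-type clone 2 stood apart, with 18433 genes above 0 against 15007 to 16813 in the others. Fibroblast markers were high in all 4 Ctcf libraries. Col1a1, a collagen chain, stood at 2303 to 3373 RPKM and Vim, the intermediate filament vimentin, at 1719 to 2577 RPKM. Of the 18 tested fibroblast markers 0 were called by limma, with 2 higher and 1 lower at an unadjusted p below 0.05. At that level 1599 of all 12604 tested genes were higher and 899 lower after Ctcf deletion. In wild-type cells Adeno-Cre gave 1620 higher and 714 lower. Unadjusted counts of every list are to be set beside these. Macrophage markers were present too, at a summed 1123 RPKM untreated and 741 treated in clone 1 and 519 and 434 in clone 2, and 0 of 18 were called by limma, also at an unadjusted p below 0.05. In such bulk RNA, fewer cells of a type and less RNA per cell cannot be told apart. No marker of blood cells passed the filter, and their summed level was at most 1.38 RPKM.

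Ctcf mRNA itself fell in both clones. It was at 13.2 RPKM untreated and 4.23 treated in clone 1, and at 11.6 untreated and 4.04 treated in clone 2. The treated libraries lay below both untreated ones, with no overlap, as they did for 2649 of 12604 tested genes (21%). The treated libraries kept 601 and 335 reads of Ctcf. On the log2(RPKM + 1) scale used for all fold changes, which understates the change of low genes, the difference was -1.38 (SE 0.13, limma with Benjamini-Hochberg adjustment over all genes tested, adjusted p = 1.69e-06). The adjusted p was 3.56e-06 with the clone as a replicate block, that is, with treated and untreated libraries paired by clone. Wild-type cells kept Ctcf at 15.1 and 16.2 RPKM untreated and 13.9 and 15.3 RPKM after Adeno-Cre, and the change in the floxed cells differed from theirs by -1.28 (SE 0.19, limma, adjusted p = 0.000627). Of the 18 tested genes of CTCF and of the cohesin machinery, 2 others were called. Rec8, the meiotic cohesin subunit, stood at 0.0957 and 0 RPKM untreated and 2.11 and 0.384 RPKM treated, and Stag1, a cohesin subunit of ordinary cells, went from 4.06 to 7.79 RPKM in clone 1 and from 4.22 to 7.17 in clone 2. The Stag1 call (limma, adjusted p = 0.0192) was lost without any of the 4 libraries (0.0685 to 0.135), and that of Rec8 (limma, adjusted p = 0.0178) without untreated clone 1 (0.086), treated clone 1 (0.284) or untreated clone 2 (0.0956).

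After Ctcf deletion 635 of 12604 tested genes (5.04%) rose and 331 (2.63%) fell at an adjusted p below 0.05, 966 genes (7.66%) in all. Changes of at least 2-fold were called for 209 genes upwards (1.66%) and 162 downwards (1.29%). Called or not, 3442 tested genes (27.3%) had both treated libraries above both untreated ones and 2649 (21%) had them below. A lack of overlap was thus common. The genes that rose started from a median of 6.03 RPKM and reached 14.5, while the genes that fell went from a median of 11.7 to 4.43 RPKM. The genes that rose were also shorter, at 0.83 of the median length of all tested genes, against 1.20 for those that fell. Rescaling each library by the median of ratios moved the share of rises among all calls from 65.7% to 55.5%, and removing each library's trend with gene length, which left 515 rises (4.09%) and 448 falls (3.55%), moved it to 53.5%. With the clone as a replicate block 1977 genes (15.7%) rose and 1178 (9.35%) fell, and these held every one of the 635 and 331. Rises numbered 223 without the untreated library of clone 1 and 284 without the treated library of clone 2, and falls 156 without untreated clone 1, 153 without treated clone 1 and 203 without treated clone 2.

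The largest falls were named among genes with a group mean of at least 5 RPKM. On the log2(RPKM + 1) scale a large fall also needs a high untreated level, so that level is no result. Gaa, the lysosomal enzyme that digests glycogen, stood at 310 and 254 RPKM in the untreated libraries of clones 1 and 2 and at 69.5 and 71.6 RPKM in the treated ones. The treated libraries lay close together and far below the untreated ones, for a log2 fold change of -1.98 (SE 0.17, limma, adjusted p = 6.77e-07). Ehd2, an ATPase that sits at the neck of caveolae, fell from 144 to 21.8 RPKM in clone 1 and from 149 to 38.3 RPKM in clone 2 (log2 fold change -2.30, SE 0.30, limma, adjusted p = 5.44e-05). Krtcap2, a subunit of the complex that attaches sugar chains to new proteins, fell from 200 to 46.2 RPKM and from 233 to 68.2 RPKM (log2 fold change -1.92, SE 0.28, limma, adjusted p = 0.000176). In wild-type cells Adeno-Cre moved these genes by -0.14, -0.18 and 0.55 on the log2 scale, and the difference from the wild-type change passed the threshold for each (limma, adjusted p of 0.000273, 0.0111 and 0.00164 for Gaa, Ehd2 and Krtcap2). Ehd1, a close relative of Ehd2 with a role in endocytic recycling, rose instead, from 74.9 to 130 RPKM and from 74.0 to 119 RPKM (log2 fold change 0.74, SE 0.14, limma, adjusted p = 0.00264).

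Fmo2, a flavin monooxygenase, was at 22.6 and 17.0 RPKM untreated and 1.86 and 2.70 treated, with no overlap (log2 fold change -2.67, SE 0.47, limma, adjusted p = 0.00125). It changed by -0.60 in wild-type cells, and the test of the difference did not pass (limma, adjusted p = 0.199). A further 4 genes went from between 11.3 and 35.5 RPKM to between 1.98 and 7.69 RPKM. Mrps2, a protein of the mitochondrial ribosome, was at 14.6 and 15.7 RPKM untreated and 2.56 and 4.41 treated. Adprhl2, which removes ADP-ribose from proteins, was at 17.5 and 21.4 RPKM untreated and 4.09 and 4.69 treated, and Mdp1, a small phosphatase, at 11.3 and 13 untreated and 1.98 and 2.84 treated. Sh3bp5, a docking protein of the mitochondrial surface, went from 35.5 to 6.54 RPKM and from 27.5 to 7.69 RPKM. No treated library overlapped an untreated one for any of the 4 genes, as for 21% of all tested genes in this direction. Their log2 fold changes of -1.99 to -1.88 had limma adjusted p-values between 9.26e-08 and 3.76e-06. Adra1b, an adrenergic receptor, fell from 12.8 to 1.65 RPKM and from 5.49 to 1.13 RPKM (log2 fold change -2.0, SE 0.30, limma, adjusted p = 0.000214). Rasl11a, a Ras-like GTPase, fell from 55.3 to 12.3 RPKM and from 51.4 to 16.5 RPKM (log2 fold change -1.83, SE 0.34, limma, adjusted p = 0.00181).

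The genes that rose furthest included many that were close to silent before. In 9 of the 635 rising genes the mean level went from under 1 RPKM to at least 5 RPKM, namely Bean1, Ccno, Cldn3, Gldc, Mnd1, Mreg, Pip5k1b, Slain1 and Slc14a1, of which Ccno and Mreg are named only because they complete this count. Gldc, which breaks down glycine in mitochondria, was at 0.15 and 0.206 RPKM untreated and 6.27 and 5.79 RPKM treated (log2 fold change 2.58, SE 0.13, limma, adjusted p = 8.26e-10). Slc14a1, a urea transporter, was at 0.367 and 0.364 RPKM untreated and 7.92 and 6.27 treated (log2 fold change 2.56, SE 0.15, limma, adjusted p = 3.57e-09). The untreated values of both clones lay between 0.15 and 0.367 RPKM and no treated library overlapped them. Mnd1, a protein of meiotic recombination, went from 0.197 to 5.72 RPKM and from 0.523 to 4.94 RPKM, and Bean1, which binds the ubiquitin ligase Nedd4, from 0.892 to 8.20 RPKM and from 0.415 to 6.70 RPKM. In the other direction 3 of the 331 falling genes went from at least 5 RPKM to under 1 RPKM, namely Hey2, Pcdhb22 and Thsd4, and Hey2 is again named only to complete the count. Of the rising genes 126 (19.8%) had an untreated mean under 1 RPKM, against 13.8% of all tested genes. The filter let 63 genes into the test through the treated Ctcf libraries alone, and 38 of them were called higher, Cldn4, Gldc, Nefm, Pax3, Pip5k1b and Slain1 included, so their calls were favoured by the filter.

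**Figure D1:**
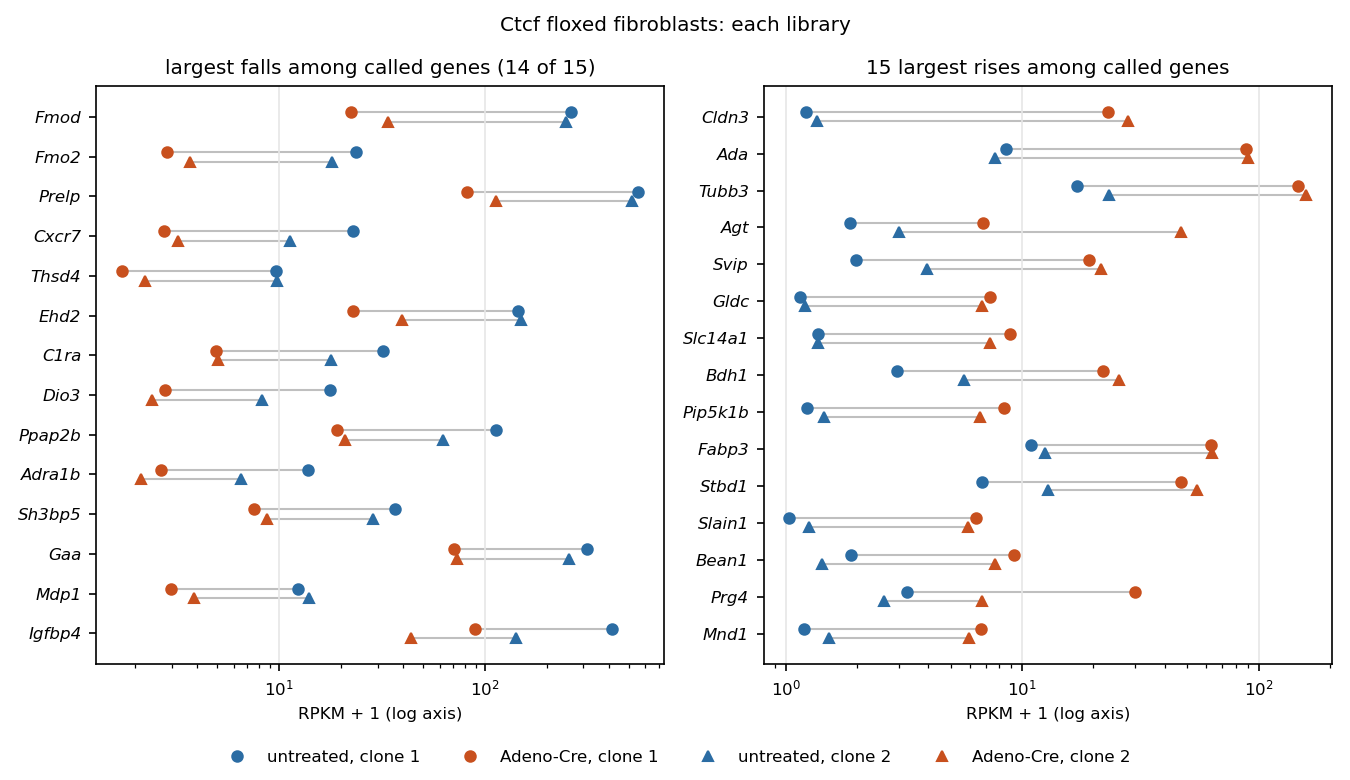
Levels of 14 of the 15 genes with the largest falls (left) and the 15 with the largest rises (right) among called genes, as RPKM + 1 on a log axis. Circles are clone 1, triangles clone 2, blue untreated and orange Adeno-Cre, with a line joining the libraries of a clone. For every gene shown both treated libraries lie on the same side of both untreated ones. Of all tested genes, 27.3% have both treated libraries above and 21% below. Agt and Prg4 are the genes whose treated clones lie far apart.

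Bdh1, the mitochondrial enzyme that interconverts ketone bodies, went from 1.95 to 21.0 RPKM in clone 1 and from 4.67 to 24.7 RPKM in clone 2 (log2 fold change 2.54, SE 0.23, limma, adjusted p = 1.04e-06). Fabp3, a fatty acid carrier, went from 9.84 to 61.9 RPKM and from 11.5 to 62.8 RPKM (log2 fold change 2.45, SE 0.30, limma, adjusted p = 2.55e-05). Both treated libraries lay far above both untreated ones for each of these genes. Dgat2, an enzyme of triglyceride synthesis, went from 1.77 to 13.3 RPKM and from 1.66 to 8.82 RPKM (log2 fold change 2.13, SE 0.33, limma, adjusted p = 0.000335), and Svip, a small inhibitor of protein disposal at the endoplasmic reticulum, from 0.972 to 18.2 RPKM and from 2.95 to 20.5 RPKM (log2 fold change 2.87, SE 0.27, limma, adjusted p = 1.66e-06). Stbd1, which ties glycogen to membranes, rose while the glycogen enzyme Gaa fell. It was at 5.78 and 11.9 RPKM untreated and 45.9 and 53.8 RPKM treated (log2 fold change 2.44, SE 0.52, limma, adjusted p = 0.00572), a call lost without the untreated library of clone 1 (0.113) or the treated library of clone 2 (0.0573). Bdh2, a cytosolic relative of Bdh1, was called lower, from 8.98 to 3.18 RPKM and from 11.5 to 4.75 RPKM (log2 fold change -1.18, SE 0.33, limma, adjusted p = 0.0331), but not without any 1 of the 4 libraries (0.0622 to 0.207). The adipocyte markers as a list did not rise, with a summed 244 and 228 RPKM untreated and 132 and 157 RPKM treated, and 1 of 11 tested, Dgat2, was called. Bdh1 and Svip passed the test of a difference from the wild-type change, while Fabp3, Dgat2, Stbd1 and Bdh2 did not.

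Pip5k1b, a lipid kinase, went from 0.223 to 7.41 RPKM and from 0.451 to 5.64 RPKM, and Slain1, a protein of growing microtubule ends, from 0.0356 to 5.38 RPKM and from 0.249 to 4.90 RPKM. Their log2 fold changes were 2.49 (SE 0.17) and 2.43 (SE 0.17). Without either treated library both genes fell under the filter, so the calls (limma, adjusted p of 3.08e-08 and 5.57e-08) have no such check. Prg4, the joint lubricant proteoglycan, was uneven between clones, at 2.24 and 29.0 RPKM in clone 1 and 1.59 and 5.77 RPKM in clone 2 (limma, adjusted p = 0.0106), and its call was lost without untreated clone 1 (0.0572), treated clone 1 (0.176) or untreated clone 2 (0.0707). Ifi30, a lysosomal thiol reductase of antigen processing, went from 99.1 to 437 RPKM and from 103 to 306 RPKM (log2 fold change 1.84, SE 0.25, limma, adjusted p = 7.75e-05). Tap2, a peptide pump that also serves antigen processing, was called lower, from 28.5 to 13.9 RPKM and from 21.9 to 13 RPKM (log2 fold change -0.85, SE 0.17, limma, adjusted p = 0.00414). Without untreated clone 1 its log2 fold change was -0.67 and the call was not kept. Pip5k1b, Slain1 and Tap2 passed the test of a difference from the wild-type change, while Prg4 and Ifi30 did not.

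CTCF binds near some gene starts, so the promoter windows of RefSeq (build GRCm38.p6, from 250 bases before to 50 bases after each start) were searched on both strands for the CTCF core motif, a consensus of 12 bases. Of 32851 windows of that length 183 (0.557%) held a match, and of the 9926 tested genes with a window 84 (0.846%) did. Among genes that fell the share was 10 of 236 (4.24%), and among genes that rose 1 of 502 (0.199%). It was 6 of 117 (5.13%) and 0 of 163 for changes of at least 2-fold. The median GC content of the windows was 62% for genes that fell, 60.7% for genes that rose and 61.1% for all tested genes. The 11 called genes with a match are shown because each pairs a motif close to the start with a measured change. Each stretch is 30 bases, read along the strand on which the motif runs, with the motif in capitals.

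C1ra: ccaaatggaCCACCAGATGGCaccagcaag
Gaa: cgccctcagCCACTAGGGGGCgcagcgata
Hsd3b7: gtggactggCCACCAGGGGGCactctggca
Slc35b2: aatcctagtCCACTAGATGGCaatggtcat
Flt3l: cacttgttaCCACTAGGTGGCgtgtcccgc
Wdr41: agcgcacgcCCACTAGGGGGCgcccgagcg
Slc25a38: taagtgcagCCACCAGGTGGCgatgagatc
Scap: ggcaggggaCCACCAGGGGGCgaacccgag
Rsad1: caacagtgtCCACCAGGTGGCgccgcagac
Rint1: gacatccaaCCAGCAGGGGGCgccacagaa
Lsm11: cagccgcggCCACCAGGGGGCagcatagat

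The first 10 of these genes fell. In all 10 the motif ran along the strand of the gene and lay wholly upstream of the start, with first bases 27 to 206 bases before it. Lsm11, the only one that rose, carried it on the other strand. Of all 84 tested genes with a match, called or not, 81 had it wholly upstream and 61 along the gene. The C1ra stretch lay at chr6:124512553-124512582 and that of Gaa at chr11:119267927-119267956, both on the plus strand. C1ra, Gaa and Scap were named by the rule for all genes. The other 8 were named after their values were seen. Hsd3b7, an enzyme of bile acid synthesis, went from 10.9 to 2.15 RPKM and from 12.7 to 3.80 RPKM, and Slc35b2, the Golgi transporter of the sulfate donor PAPS, from a mean of 45.7 ± 2.06 RPKM (SD, n = 2) to 15.9 ± 3.45 RPKM. Treated and untreated libraries did not overlap, and the log2 fold changes were -1.71 (SE 0.22, limma, adjusted p = 5.94e-05) and -1.48 (SE 0.15, limma, adjusted p = 3.34e-06). Flt3l, the ligand of a receptor of blood cell precursors, went from 3.40 to 0.528 RPKM and from 4.59 to 1.51 RPKM, and Wdr41 from 7.95 to 2.91 RPKM and from 6.73 to 2.62 RPKM. Slc25a38, a mitochondrial glycine carrier, went from 14.0 to 5.96 RPKM and from 14.6 to 8.47 RPKM. These 3 genes had log2 fold changes of -1.34, -1.14 and -0.92 and limma adjusted p-values of 0.00105, 0.000126 and 0.00118 for Flt3l, Wdr41 and Slc25a38.

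Scap, the escort of the cholesterol-sensing factor SREBP, went from 52.3 to 26.7 RPKM and from 47.5 to 25.3 RPKM (log2 fold change -0.91, SE 0.15, limma, adjusted p = 0.000817). Scap changed by -0.43 in wild-type cells, and the test of the difference did not pass (limma, adjusted p = 0.507). Of 25 tested genes of the cholesterol synthesis list Scap alone was called, and the median of that list was -0.07. Rsad1 and Rint1 changed from lower levels, from 1.03 to 0.388 RPKM and from 1.77 to 0.511 RPKM for Rsad1 and from 2.88 to 1.41 RPKM and from 3.43 to 1.84 RPKM for Rint1. Their calls (limma, adjusted p of 0.017 and 0.0148) were not kept throughout. Rsad1 had 0.109 without treated clone 1, 0.188 without untreated clone 2 and 0.0639 without treated clone 2, and Rint1 0.13 without treated clone 1 and 0.109 without untreated clone 2. The Rsad1 change did not pass the test of a difference from the wild-type one either (limma, adjusted p = 0.62). Lsm11, a factor of histone mRNA processing, went from 1.32 to 3.57 RPKM and from 1.43 to 2.85 RPKM (log2 fold change 0.82, SE 0.13, limma, adjusted p = 0.000593).

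Direction of the motif and direction of change were then set side by side over all 84 tested genes with a match. The motif ran along the gene in 61 of them. Of these 61, 10 fell and 0 rose, 42 (68.9%) had a negative change, and the median log2 fold change was -0.24, with -0.27 in clone 1 and -0.18 in clone 2. In the 23 genes with the motif on the other strand, 0 fell and 1 rose, 12 (52.2%) had a negative change and the median was -0.04. With the clone as a replicate block 20 of the 61 fell and 4 rose, and 1 of the 23 fell and 2 rose. In the joint deletion of Ctcf and Wapl 15 of the 61 were called lower and 5 higher, and 1 of the 23 lower and 5 higher. In wild-type cells limma called 0 of the 84 in either direction after Adeno-Cre, with medians of 0.04 and 0.07. At an unadjusted p below 0.05 7 of the 61 were higher and 3 lower there, against 2 higher and 17 lower after Ctcf deletion. Of the 23, 2 were higher and 1 lower there, against 1 higher and 0 lower after Ctcf deletion. Of all 12604 tested genes 1620 were higher and 714 lower there, against 1599 and 899 after Ctcf deletion. Where the change in Ctcf floxed cells lay below that in wild-type cells by the test of the difference, 8 of 71 genes with a window held a match (11.3%), all 8 along the gene. Over the alternative fits the share with a match ranged from 2.31% to 8.62% among genes that fell and from 0% to 0.562% among genes that rose. A match is a stretch of letters and was not tested for binding.

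**Figure D2:**
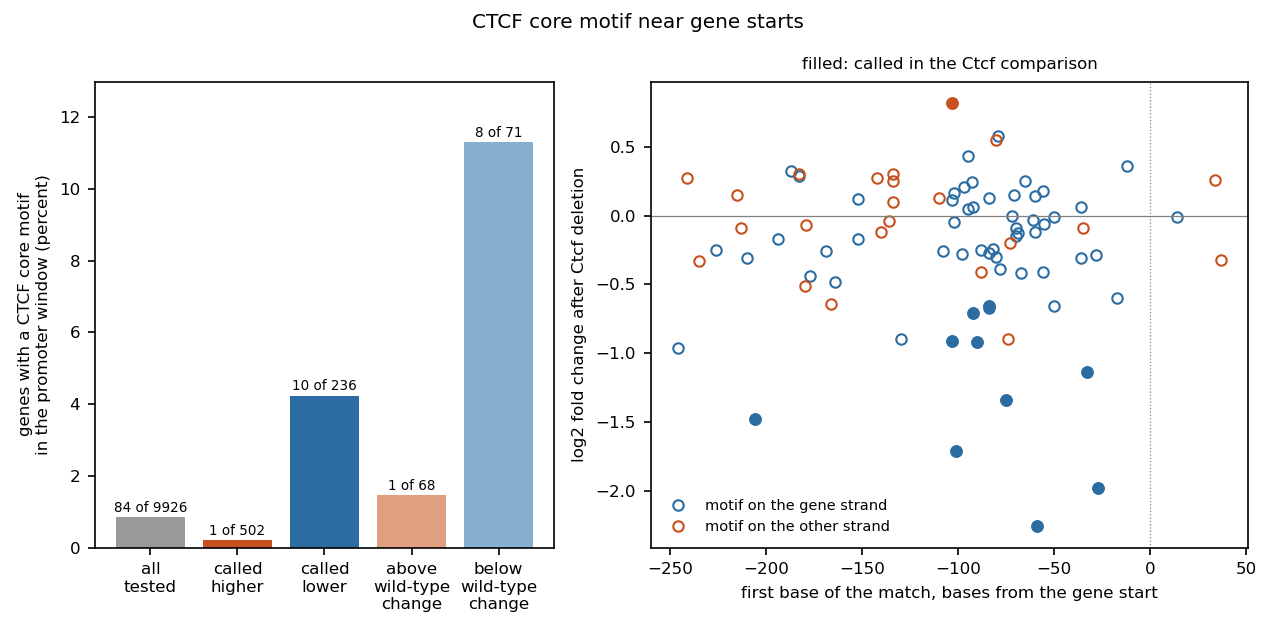
Left, the percentage of genes whose promoter window held a CTCF core motif, for all tested genes, called genes and genes whose change lay above or below the wild-type change. Right, for the 84 tested genes with a match, the position of the match in bases from the gene start against the log2 fold change after Ctcf deletion, with filled points for called genes. Where a gene has more than 1 annotated start, as Scap does, its farthest position is plotted. The 10 filled points below 0 are all of genes with the motif along the gene and upstream of the start. Of all 84 genes, 81 have the match wholly upstream and 61 along the gene.

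Genes that changed lay beside each other more often than tested genes in general. The nearest tested gene on either side, in the RefSeq gene order, was called higher in 71 of 418 cases (17%) for genes that rose at least 2-fold, against 1270 of 25156 (5.05%) for all tested genes. For genes that fell at least 2-fold it was called lower in 45 of 324 cases (13.9%), against 662 of 25156 (2.63%). Neighbours in the opposite direction were at 11 of 418 (2.63%, the same as the 2.63% of all tested genes) and 21 of 324 (6.48%, against 5.05%). With members of the histone and protocadherin lists and neighbours of the same symbol stem left out, a choice made after the data were seen, the shares were 49 of 374 (13.1%, against 4.96%) and 23 of 288 (7.99%, against 2.44%). In the opposite direction they were 11 of 374 (2.94%, against 2.44%) and 21 of 288 (7.29%, against 4.96%). No source used here says if strand was kept in counting, and reads of overlapping neighbours cannot be told apart.

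**Figure D3:**
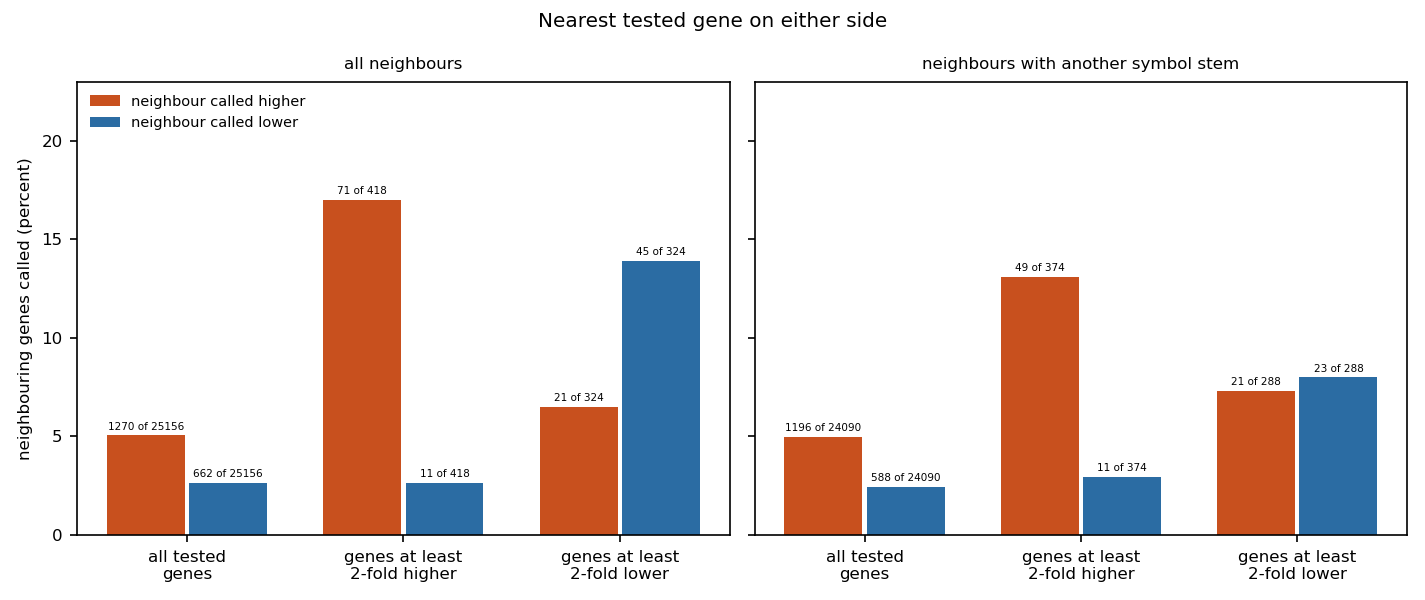
Percentage of the nearest tested genes on either side that were called higher (orange) or lower (blue), beside all tested genes and beside genes that rose or fell at least 2-fold. The left panel holds all neighbours and the right panel only those with another symbol stem, without histone and protocadherin genes. In both panels neighbours share the direction of the gene more often than neighbours of all tested genes are called.

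In 36 pairs of neighbours both genes were called with changes of at least 2-fold in 1 direction, 23 upwards and 13 downwards. Each of these pairs enters the shares of all neighbours above from both of its genes. C1ra and C1s, the proteases that start the classical complement cascade, form 1 such pair. C1ra was at 30.7 and 16.9 RPKM untreated and 3.93 and 4.01 treated (log2 fold change -2.26, SE 0.27, limma, adjusted p = 2.23e-05), and C1s at 21.3 and 14.7 untreated and 4.06 and 5.45 treated (log2 fold change -1.71, SE 0.42, limma, adjusted p = 0.0153). The C1s call was lost without untreated clone 1 (0.172), treated clone 1 (0.11) or treated clone 2 (0.0544). C1ra passed the test of a difference from the wild-type change and C1s did not (limma, adjusted p of 0.00679 and 0.331). The C1ra promoter stretch shown above belongs to this pair.

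Clu, which encodes the secreted chaperone clusterin, and Scara3, a scavenger receptor gene beside it, fell together. In wild-type cells they changed by -0.32 and -0.71. The test of the difference passed for Clu but not for Scara3 (limma, adjusted p of 0.0303 and 0.742). Clu was at 51.4 and 44.4 RPKM untreated and 10.6 and 13.6 treated (log2 fold change -1.90, SE 0.26, limma, adjusted p = 8.08e-05). Scara3, named with its pair, was at 32.7 and 26.2 RPKM untreated and 10.1 in both treated libraries (log2 fold change -1.45, SE 0.32, limma, adjusted p = 0.00773), with 0.104 without untreated clone 1 and 0.0559 without treated clone 2. Adprhl2 lay beside Col8a2, a short-chain collagen gene at 45.6 and 36.3 RPKM untreated and 15.2 and 15.4 treated (limma, adjusted p = 0.0475), whose call was lost without any 1 of the 4 libraries (0.091 to 0.294) and whose change in wild-type cells was as large, at -1.42 against -1.35. Among rising pairs Fam115c went from 4.53 to 27.5 RPKM and from 4.77 to 21.5 RPKM, and its neighbour Epha1, an ephrin receptor, from 3.18 to 9.35 RPKM and from 3.09 to 6.46 RPKM (limma, adjusted p of 0.000555 and 0.00491, the latter 0.0794 without treated clone 1). In wild-type cells Epha1 changed by 0.75 and Fam115c by 0.03 on the log2 scale. The Epha1 change did not pass the test of a difference from the wild-type one (limma, adjusted p = 0.927). With Ctcf and Wapl both deleted the Epha1 change was -1.76. Cadm3, a neuronal adhesion molecule, and Darc, a chemokine receptor of red cells and vessels, rose from 5.29 to 15.2 and from 1.45 to 11.2 RPKM and from 0.779 to 2.71 and from 0.0784 to 2.07 RPKM. Neither Cadm3 nor Darc passed the test of a difference from the wild-type change (limma, adjusted p of 0.206 and 0.16). Their limma adjusted p-values of 0.00258 and 0.00251 became 0.0571 and 0.0539 without untreated clone 2.

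Among the gene lists, the clustered protocadherins, adhesion molecules of neurons whose promoters CTCF occupies, had the highest share of called members. Of 33 tested members 26 were lower (78.8%) and 0 higher. Over all tested genes 2.63% were lower and 5.04% higher, the shares to set beside the counts of every list. Pcdhga2 was at 4.39 and 3.80 RPKM untreated and 0.508 and 0.771 treated (log2 fold change -1.64, SE 0.21, limma, adjusted p = 4.15e-05), and its neighbour Pcdhga3, named with its pair, had a log2 fold change of -1.40 (limma, adjusted p = 5.1e-05). Pcdhb22 was at 6.03 and 5.67 RPKM untreated and 0.961 and 1.04 treated (log2 fold change -1.78, SE 0.24, limma, adjusted p = 7.04e-05), and Pcdhb17 at 6.21 and 8.76 untreated and 1.26 and 2.01 treated (log2 fold change -1.68, SE 0.26, limma, adjusted p = 0.000301). Members of the alpha and of the gamma array share exons within their array, so reads can be split between them. Falls numbered 11 without untreated clone 1, 13 without treated clone 1, 17 without untreated clone 2 and 16 without treated clone 2. The median of the list was -0.88, beside 0.05 for all tested genes and -0.32 for the list in wild-type cells, where limma called 0 members and 4 were lower at an unadjusted p below 0.05. By the test of the difference itself 2 of the 33 lay below the wild-type change and 0 above it.

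All called members of the complement and metalloproteinase lists were lower, although with the clone as a replicate block 1 member of each list was called higher. Of 19 tested complement genes 4 fell (C1ra, Clu, C1s and C1rl) and 0 rose, with a list median of -0.37, and their summed level went from 425 to 138 RPKM in clone 1 and from 298 to 169 RPKM in clone 2. C1rl, a relative of C1r, was at 4.41 and 4.92 RPKM untreated and 2.07 and 1.81 treated (limma, adjusted p = 0.00492, and 0.0559 without treated clone 2, where 2 of the 4 complement calls were left). Of 32 metalloproteinases and their inhibitors 7 fell and 0 rose, with a median of -0.40. In wild-type cells limma called 0 of them, with 1 higher and 2 lower at an unadjusted p below 0.05, and Timp3 changed by -0.62 there. By the test of the difference 0 of the 32 lay above or below the wild-type change. The falls include Adamts15, a protease of aggregating proteoglycans, at 8.00 and 9.48 RPKM untreated and 1.23 and 2.49 treated (limma, adjusted p = 0.0166). They also include Timp3, an inhibitor bound to the matrix, at 879 and 874 RPKM untreated and 307 and 381 treated (limma, adjusted p = 0.0393). With the clone as a replicate block 10 of the 32 were called lower. Fewer than the 7 were called lower whichever 1 of the 4 libraries was left out. Adamts15 had 0.0843 and 0.0898 without the untreated libraries of clones 1 and 2 and 0.14 without treated clone 1, and Timp3 0.109 to 0.188 over the 4.

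Other matrix genes moved both ways. Of 44 genes of elastic fibres and matrix glycoproteins 4 rose (Tnc, Ltbp2, Smoc2 and Loxl4) and 1 fell (Thsd4). The rises were 9.09%, against 5.04% of all tested genes, and the fall 2.27%, near the 2.63% of all tested genes. The 12 small leucine-rich proteoglycans had 2 falls (16.7%) and 0 rises, and 34 collagens had 4 falls (11.8%) and 0 rises. By the test of the difference Smoc2 alone of these lists lay above the wild-type change. In the same test 0 members, Thsd4 included, lay below it. Smoc2, a calcium-binding matrix protein, went from 131 to 262 RPKM and from 126 to 270 RPKM (log2 fold change 1.04, SE 0.21, limma, adjusted p = 0.00346), and its change lay 1.38 above that of wild-type cells (limma, adjusted p = 0.0188). Thsd4, which helps build fibrillin microfibrils, went from 8.67 to 0.717 RPKM and from 8.69 to 1.23 RPKM (log2 fold change -2.31, SE 0.49, limma, adjusted p = 0.00578), with 0.0545 without untreated clone 1 and 0.0577 without treated clone 1. Tnc, the wound matrix protein tenascin-C, was at 345 and 462 RPKM untreated and 1126 and 1170 treated (limma, adjusted p = 0.0406), and Ltbp2, a microfibril protein, at 159 and 230 untreated and 483 and 536 treated (limma, adjusted p = 0.0209). Groups did not overlap for either gene. The calls of Tnc (0.0748 to 0.285) and Loxl4 (0.0648 to 0.214) were lost without any 1 library, and that of Ltbp2 without untreated clone 1 (0.23), treated clone 1 (0.0713) or treated clone 2 (0.137). Rises of the elastic fibre list thus numbered 1 or 2. The 4 collagen calls fell to 1 without untreated clone 1 and to 0 without any 1 of the other libraries.

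Some imprinted genes have CTCF sites in their control regions. Of 45 tested imprinted genes 4 fell (8.89%, against 2.63% of all tested genes) and 1 rose (2.22%, against 5.04%). Sgce, the maternally silenced gene of epsilon-sarcoglycan, went from 31.0 to 7.17 RPKM and from 28.0 to 12.6 RPKM (log2 fold change -1.53, SE 0.21, limma, adjusted p = 9.45e-05), and its change lay 1.46 below that of wild-type cells (difference -1.46, limma, adjusted p = 0.0128). Dio3, the enzyme that inactivates thyroid hormone, went from 16.7 to 1.77 RPKM and from 7.21 to 1.4 RPKM (log2 fold change -2.23, SE 0.49, limma, adjusted p = 0.00777), with 0.155 without untreated clone 1 and 0.0702 without treated clone 2. In wild-type cells Dio3 changed by -1.12, and the test of the difference did not pass (limma, adjusted p = 0.757). H19, an imprinted noncoding RNA next to Igf2 and named here for that known CTCF site, was at 1390 and 671 RPKM untreated and 182 and 97.3 treated. The groups did not overlap, but the change of -2.85 (SE 1.15) passed the threshold only with the clone block (limma, adjusted p = 0.157 without the block and 0.0230 with it), and wild-type cells had a log2 fold change of -1.19. Igf2 was at 360 and 196 RPKM untreated and 149 and 103 treated (limma, adjusted p = 0.533). Imprinted falls numbered 1 without untreated clone 1 and 2 without either treated library.

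**Figure D4:**
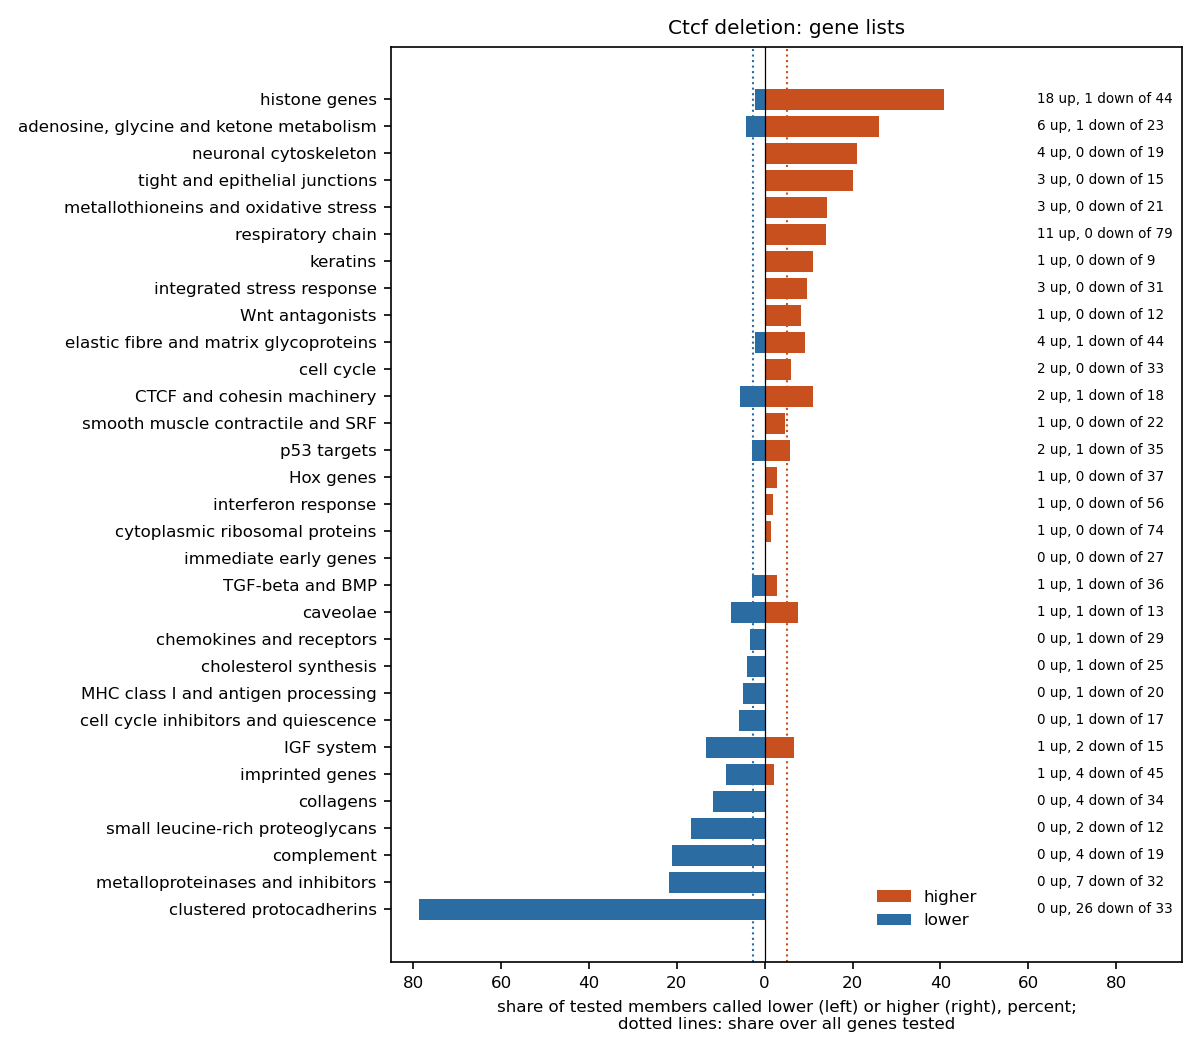
For the gene lists other than cell type markers, the percentage of tested members called lower (blue, to the left) or higher (orange, to the right) after Ctcf deletion, with the counts at the right. Dotted lines mark the shares over all tested genes, 2.63% lower and 5.04% higher. Protocadherins (26 of 33 lower) and histone genes (18 of 44 higher) lie at the ends.

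Some members of the histone and respiratory chain lists were called higher after Adeno-Cre in Ctcf floxed cells and in wild-type cells. Of 44 tested histone genes 18 rose and 1 fell after Ctcf deletion, and 24 rose and 0 fell in wild-type cells, where 340 genes in all (2.7%) rose and 68 (0.54%) fell. With the length trend removed 6 rose, and with 1 library left out 8 to 14 did, with 8 without untreated clone 1 and 10 without treated clone 2. Hist1h4h went from 25.2 to 133 RPKM and from 27.8 to 119 RPKM (log2 fold change 2.21, SE 0.31, limma, adjusted p = 0.000139), and by 3.10 in wild-type cells. Of 79 respiratory chain genes 11 rose and 0 fell, 44 with the clone block, and 12 rose in wild-type cells. The count was 6 after median-of-ratios rescaling, 1 without untreated clone 1 and 2 without treated clone 2. Atox1, a copper chaperone, rose from 186 to 442 RPKM and from 233 to 527 RPKM (log2 fold change 1.21, SE 0.23, limma, adjusted p = 0.00206), with 0.61 in wild-type cells.

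Stress genes gave a mixed record. Fgf21, a hormone of the integrated stress response, went from 1.32 to 10.7 RPKM and from 3.26 to 8.58 RPKM (log2 fold change 1.75, SE 0.26, limma, adjusted p = 0.000233). It was 1 of 3 rises among 31 tested genes of that response, with 0 falls, and 1 rise was left without untreated clone 1 or treated clone 2. Gclm, a subunit of the enzyme that makes glutathione, went from 34.4 to 65.5 RPKM and from 40.8 to 80 RPKM (log2 fold change 0.93, SE 0.16, limma, adjusted p = 0.000967), and Prdx6, a peroxidase, from 49.7 to 118 RPKM and from 48.5 to 152 RPKM (log2 fold change 1.43, SE 0.26, limma, adjusted p = 0.00134). They were among 3 rises of 21 tested metallothionein and oxidative stress genes (14.3%). The 3 rises of the integrated stress response were 9.68% of its list, and 5.04% of all tested genes rose. Trp53 mRNA rose from 58.0 to 91.1 RPKM and from 59.9 to 97.6 RPKM (log2 fold change 0.67, SE 0.12, limma, adjusted p = 0.00146), while Cdkn1a, its target and a cell cycle inhibitor, was called lower at 842 and 829 RPKM untreated and 573 and 541 treated (log2 fold change -0.59, SE 0.16, limma, adjusted p = 0.0337). Of 35 tested genes of the p53 list, which holds both, 2 rose (5.71%) and 1 fell (2.86%), with a median of 0.15. These shares were near the 5.04% and 2.63% of all tested genes. The Cdkn1a call was lost without any 1 of the 4 libraries (0.091 to 0.188). In wild-type cells the log2 fold changes of Fgf21, Gclm, Prdx6, Trp53 and Cdkn1a were 0.60, 0.28, 0.64, 0.41 and -0.44. For none of these 5 genes did the floxed change pass the test of a difference from the wild-type one (limma, adjusted p of 0.191, 0.26, 0.513, 0.772 and 0.996). The share of cell cycle genes called higher, 6.06%, was near the 5.04% of all tested genes. Among 33 tested cell cycle genes limma called 2 higher and 0 lower, with 7 and 0 at an unadjusted p below 0.05, and the number higher was 1 without treated clone 1 or untreated clone 2 and 0 without either of the others.

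The interferon genes differed between the 2 clones. Their summed level over the list went from 1684 to 1414 RPKM in clone 1 and from 618 to 1390 RPKM in clone 2, with median log2 fold changes of -0.72 and 0.42. Of 56 tested members 1 rose (Oasl1) and 0 fell, while in wild-type cells, whose sums went from 588 to 2968 RPKM and from 433 to 1730 RPKM, 24 rose and 0 fell. The untreated cells of Ctcf clone 1 thus had a higher level before any virus than those of the other 3 clones. Immediate early genes, which respond within minutes to growth factors and handling, had a median of -0.66, with 0 of 27 called by limma without the clone block, 1 lower at an unadjusted p below 0.05, and 14 called lower with the block.

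A few neural and epithelial genes rose. Tubb3, the tubulin of neurons, Nefm, a neurofilament, and Pax3, a factor of the neural crest, were called higher among 10 tested neural markers, whose summed level went from 51.2 to 179 RPKM and from 49.3 to 180 RPKM, most of it Tubb3 at 146 and 158 RPKM in the treated libraries. In wild-type cells Adeno-Cre took Tubb3 from 38.7 to 151 RPKM and from 41.1 to 103 RPKM (log2 fold change 1.62, limma, adjusted p = 0.0126), and the test of the difference from the floxed change did not pass (limma, adjusted p = 0.265). The summed neural markers went from 79.7 to 191 RPKM and from 82.6 to 139 RPKM there. Nefm and Pax3 had log2 fold changes of 0.61 each in wild-type cells (limma, adjusted p of 0.193 and 0.0617). Nefm, Pax3 and Cldn4 entered the test only through the treated Ctcf libraries. Over the 10 neural markers the median log2 fold change was -0.22, and 30% were called higher, against 5.04% of all tested genes. Ncam1 went from 16.1 to 14.1 RPKM and from 14.3 to 10.8 RPKM. Of the neural crest markers, Sox10 went from 8.88 to 6.5 RPKM and from 5.25 to 4.4 RPKM. Foxd3 went from 2.43 to 2.71 RPKM and from 1.87 to 1.59 RPKM. Nefm was at 0.355 and 0.337 RPKM untreated and 3.30 and 0.870 treated, and its call (limma, adjusted p = 0.0100) was lost without untreated clone 1 (0.0757) or untreated clone 2 (0.0524). Without treated clone 1 Nefm was under the filter, as was Pax3 without treated clone 2. Pax3 was at 0.208 and 0.634 RPKM untreated and 1.00 and 1.29 treated (limma, adjusted p = 0.0388, and 0.431 without untreated clone 1 and 0.0714 without treated clone 1). Of 15 tested genes of tight and epithelial junctions 3 rose, Cldn3, Cldn4 and Dsp (20%, against 5.04% of all tested genes). The summed epithelial markers stood at 7.96 and 7.35 RPKM untreated and 8.05 and 11.8 treated. Cldn4 was at 0.0807 and 0.0751 RPKM untreated and 1.42 and 0.660 treated (limma, adjusted p = 0.00914, and 0.0734 without untreated clone 1), and it was under the filter without treated clone 1. Dsp, a desmosome protein, was at 0.44 and 0.123 RPKM untreated and 3.36 and 0.75 treated (limma, adjusted p = 0.0456), and its call was lost without untreated clone 1 (0.114), treated clone 1 (0.481) or untreated clone 2 (0.213). Of the 15 genes 1 was called without untreated clone 1, and of the 10 neural markers 1 without either library of clone 1. The part of other cell types in these values was not tested.

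Set beside the wild-type cells, part of the change was shared. Of the 635 rising genes 81.7% had a positive change after Adeno-Cre in wild-type cells, against 54.5% of all tested genes, and 19.4% were called higher there, which is 36.2% of the 340. Of the 331 falling genes 79.2% had a negative change in wild-type cells, against 45.5% of all, and 25 (7.55%) were called lower there, which is 36.8% of the 68. The median change in wild-type cells was 0.30 for the genes that rose and -0.27 for those that fell. The change itself differed from that of wild-type cells for 93 genes upwards (0.738%) and 91 downwards (0.722%). Apart from genes given above, Dhrs4, a reductase of peroxisomes, lay among the latter, at 16.0 and 21.9 RPKM untreated and 3.23 and 5.21 treated in floxed cells (difference -2.15, limma, adjusted p = 0.000642). Them6 fell from 4.87 to 0.721 RPKM and from 5.61 to 2.29 RPKM (difference -2.01, limma, adjusted p = 0.00707), and its fall in floxed cells (limma, adjusted p = 0.00251) had 0.0615 without treated clone 1. Without 1 library of either genotype the upward count was 52 to 110 and the downward count 41 to 86. It was 52, 60 and 59 upwards without wild-type untreated clone 2, wild-type Adeno-Cre clone 2 and wild-type untreated clone 3, and 58, 56 and 53 without Ctcf floxed untreated clone 1, treated clone 1 and treated clone 2. Downwards it was 49 without wild-type Adeno-Cre clone 2, 47 without wild-type untreated clone 3 and 41 without Ctcf floxed treated clone 1. The wild-type counts of 340 and 68 fell to 38 and 3 without the Adeno-Cre library of clone 2, to 58 and 5 without untreated clone 2 and to 56 and 9 without untreated clone 3, while 159 genes fell without the Adeno-Cre library of clone 3.

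**Figure D5:**
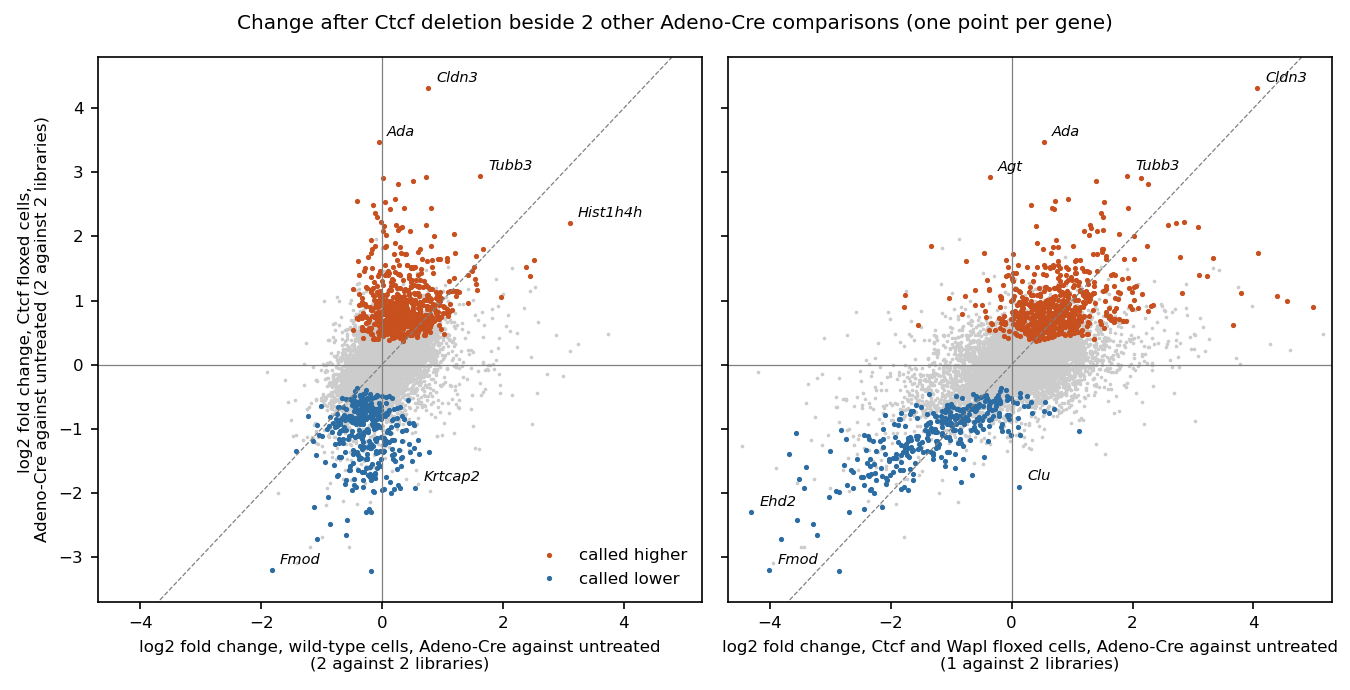
Log2 fold change of each tested gene after Ctcf deletion (vertical) against its change after Adeno-Cre in wild-type cells (left) and in Ctcf and Wapl floxed cells (right), with called rises in orange, called falls in blue, other genes in grey and a dashed line of equal change. Gaps from the line show genes such as Ada and Krtcap2 on the left and Ada, Agt and Clu on the right.

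Ctcf was also deleted together with Wapl, the factor that releases cohesin from chromatin. That comparison rested on 1 treated library, assumed to vary like the other groups, and its counts are given as a description. It had 1324 genes higher and 673 lower, which became 641 and 419 without the untreated library of clone 3, which had no treated partner. Of the 331 falling genes 230 (69.5%) were called lower there, 34.2% of the 673 genes (5.34% of those tested) that fell, and 94.6% had a negative change against 34.7% of all tested genes. Of the 635 rising genes 328 (51.7%) were called higher, 24.8% of the 1324 (10.5%) that rose. Ehd2 stood at -4.31 on the log2 scale with both genes deleted and Gaa at -2.91. Clu had a log2 fold change of 0.13 there (limma, adjusted p = 0.837), and Ada, a deaminase of adenosine, one of 0.53 (limma, adjusted p = 0.538) against 3.47 after Ctcf deletion alone. Whether these differences between the deletions exceed the spread was not tested.

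Nascent RNA was measured by GRO-seq, which labels RNA on polymerases that are still engaged, in Ctcf and Wapl floxed cells only and as 1 pooled column per condition. Its values are given side by side, in TPM, transcripts scaled to a fixed total, as deposited, with no test. Treated values lay below untreated ones for 307 of the 331 falling genes (92.7%), for 418 of 634 rising genes with a value (65.9%) and for 81% of all tested genes with a value. Gaa stood at 7.48 TPM untreated and 0.533 treated, Krtcap2 at 19 and 0.822, Adprhl2 at 19.9 and 7.21 and Mrps2 at 16.2 and 3.47. Cldn3, listed at 0 TPM in untreated cells, was at 13.9 TPM in treated cells, while Gldc and Bdh1, which rose as mRNA in the Ctcf floxed cells, were at 0.968 and 0.819 TPM and at 2.81 and 2.06 TPM.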

How the data were processed

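Polyadenylated RNA was profiled in 27 libraries, of which 4 form the Ctcf comparison. The authors deposited RPKM values for 23339 genes, per the file headers, and GRO-seq values as TPM, pooled over clones, per the file headers. The submitters' processing notes name the build mm9 and, without roles, bedtools, HTSeq, TopHat (1.3.1, 1.4.1), MACS 1.4.2 and Bowtie 0.12.5. They do not name the strand of counting. Whole reads were recovered for 18146 of 18155 genes (99.95%, tolerance 0.02 reads). No count test was run on them here. Unused columns numbered 0.

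Tests covered 12604 genes that reached 1 RPKM in 2 or more libraries. They were run with limma 3.58.1 in R 4.3.3 on log2(RPKM + 1), two-sided, with 1 mean per group over 12 groups, 15 residual degrees of freedom, trended and robust empirical Bayes, and Benjamini-Hochberg adjustment at a threshold of 0.05. The Ctcf and wild-type changes were compared as a contrast in the same model. Treated and untreated libraries are paired by the clone in their labels, and their deviations from group means correlated at 0.68 in the Ctcf cells and 0.76 in the wild type. The fit with the clone as a block had 7 residual degrees of freedom. The procedure was tested on simulated data. Python 3.11.15, pandas 2.3.3, numpy 2.4.6 and matplotlib 3.10.9 were used.

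The genes, gene lists and tests were chosen with earlier results of these data known. Among called genes that moved the same way in both clones, with a group mean of at least 5 RPKM, the rule named Ctcf, the 15 highest and 15 lowest fold changes, the 8 largest RPKM gains and losses, the 10 largest differences from the wild-type change in each direction, and up to 4 called members of each list and direction, where no minimum level applied. A list of adenosine, glycine and ketone metabolism held genes of those earlier results and is described only by its members. Predicted genes and RIKEN clones were counted, not named. Some genes that the rule selected are not reported here, and counts include them. Neighbours were read from the RefSeq gene order (12599 genes matched), up to 8 pairs named, and promoters from RefSeq (9926 genes). ChIP-seq was not analysed here.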

Additional observations from a re-analysis of the deposited data

Results flagged for a closer look

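For 38 of the genes named, the change in Ctcf floxed cells differed from the change that Adeno-Cre gave in wild-type cells, by the contrast of both in the limma model at an adjusted p below 0.05. Values are differences of log2 fold changes, floxed minus wild type, over 2 clones each. Ctcf itself stood at -1.28. Rises in excess of the wild-type change were found for Cldn3 (3.55), Ada (3.52), Slc14a1 (2.98), Pip5k1b (2.64), Bdh1 (2.48), Bean1 (2.48), Gldc (2.36), Svip (2.36), Slain1 (2.31), Mnd1 (2.25), Fam115c (2.14), Smoc2 (1.38) and Lsm11 (0.88). The largest falls in excess of the wild-type change were those of Krtcap2 (-2.47), Adprhl2 (-2.22), Adra1b (-2.15), Dhrs4 (-2.15), Mrps2 (-2.14), Ehd2 (-2.12), C1ra (-2.04) and Them6 (-2.01). Falls of intermediate size were those of Rasl11a (-1.97), Mdp1 (-1.96), Sh3bp5 (-1.86), Gaa (-1.83), Pcdhb22 (-1.67), Slc35b2 (-1.66), Clu (-1.58) and Hsd3b7 (-1.51). Smaller falls were those of Sgce (-1.46), Flt3l (-1.37), Slc25a38 (-1.36), Pcdhga2 (-1.25), Tap2 (-1.22), C1rl (-1.19), Wdr41 (-1.18) and Rint1 (-0.97). Gldc, Pip5k1b and Slain1 entered the test only through the treated Ctcf libraries, which favoured their calls. Groups of 2 libraries are too small for a check of single outlying libraries.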

How the results depend on the processing

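Counts are given as genes higher and lower. With the clone as a replicate block the Ctcf comparison had 1977 and 1178 genes (259 at least 2-fold lower), the difference from wild type 431 and 445, wild-type Adeno-Cre 1987 and 912, and the Ctcf and Wapl deletion 1030 lower. With the length trend removed as well, added after the data were seen, these were 1430 and 1560 (305), 355 and 347, 681 and 685, and 1381 lower. Length removal alone gave wild type 81 and 27 and the joint deletion 817 and 1010. A fit of Ctcf and wild-type libraries alone, with fewer degrees of freedom, had 359 Ctcf genes higher, 20 and 16 for the difference, and, by limma, 2 and 0 for wild type, against 1620 and 714 at an unadjusted p below 0.05 in the model of all libraries. The 4 Ctcf libraries alone gave 26 and 18, all at least 2-fold, and Ctcf mRNA at -1.38, no longer past the threshold. A pseudocount of 0.1 gave 244 Ctcf genes at least 2-fold lower and 204 wild-type genes higher. With no filter 168 genes lay below the wild-type change, 620 wild-type genes were higher and 2217 in the joint deletion. Median-of-ratios rescaling gave 194 wild-type genes higher and 685 in the joint deletion.

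Leaving out 1 library gave 223 to 515 Ctcf genes higher and 153 to 229 lower, 139 to 272 and 98 to 154 at least 2-fold, 52 to 110 and 41 to 86 for the difference, 38 to 315 and 3 to 159 for wild type, 641 to 1983 and 419 to 871 for the joint deletion, and -1.47 to -1.29 for Ctcf mRNA. A group left with 1 library was assumed to vary like the others. Every gene the rules selected besides Ctcf kept its direction in every alternative that tested it. These genes were called and moved the same way in both clones, and the alternatives refit the same libraries. A kept direction was thus close to fixed in advance and is no separate check. A minority of the selected genes, 54, kept their call in all but the fits of fewer groups, and 20 kept it in every alternative. The block ended no call among the selected genes. The joint deletion was not run in the fits of fewer groups. Depth limits low genes, since 1 RPKM stood for 57.7 reads of a gene of median length in the shallowest Ctcf library.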
